A study of Mus musculus with 6 samples.

Results

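The 10 genes of VEGF and angiopoietin signalling described here were followed through pancreatic tumours of treated and vehicle mice. They were taken by symbol from the 32285 features of each library, and 10 of 10 symbols were found: the ligands Vegfa, Vegfb, Vegfc and Angpt2, the receptors Kdr, Flt1, Nrp1, Tek and Tie1, and the phosphatase gene Ptprb. The 6 libraries were droplet single-cell libraries (10x Genomics) of 1 tumour each. All 6 mice were KPC mice, which carry p53LSL.R172H/+ and Pdx1-Cre tg/+, a model in which Cre under the Pdx1 promoter switches on its driver alleles in the pancreatic lineage, so that the controls carried them too. The 3 treated mice received trametinib at 1 mg/kg and hydroxychloroquine at 40 mg/kg, both by mouth; trametinib inhibits the kinase MEK, and hydroxychloroquine blocks the late steps of autophagy. The 3 vehicle mice received corn oil and water. Mice entered at random once ultrasound showed a tumour 4 to 7 mm across, and the tumour was taken 24 h after treatment and dissociated enzymatically.

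VEGF-A is the main growth factor of blood vessels and is made by tumour and stromal cells, often under low oxygen; it binds the receptor kinases KDR (VEGFR2), which carries most of the growth and permeability signal, and FLT1 (VEGFR1), which binds tightly and signals weakly, with neuropilin 1 as a co-receptor. The angiopoietins act on another pair of endothelial receptor kinases, TEK (TIE2) and TIE1: ANGPT1 from perivascular cells stabilises vessels, and ANGPT2, stored and released by endothelial cells, opposes it in many settings. PTPRB, known as VE-PTP, is an endothelial phosphatase that removes phosphate from TIE2, from KDR and from junction proteins. Pancreatic ductal tumours are known for sparse vessels in dense stroma.

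In mm10 coordinates of the GENCODE M21 annotation, Vegfa lies at chr17:46016993-46032369 on the minus strand, Vegfb at chr19:6982473-6987651 (minus), Vegfc at chr8:54077606-54187096 (plus) and Angpt2 at chr8:18690263-18741562 (minus). Kdr lies at chr5:75932827-75978458 (minus), Flt1 at chr5:147561604-147726011 (minus) and Nrp1 at chr8:128358604-128503363 (plus). Tek lies at chr4:94739289-94874976 (plus), Tie1 at chr4:118471191-118490061 (minus) and Ptprb at chr10:116275523-116389535 (plus). Tek, the angiopoietin receptor gene, was expressed in the endothelial class and was low in the other classes. For that reason the 250 bases before its start are shown, 5′ to 3′ on the strand of the gene (RefSeq, GRCm38.p6). Capitals mark TTCCTG, the reverse complement of CAGGAA, a core bound by ETS factors, which act in many endothelial genes.
Tek, chr4:94739039-94739288, plus strand: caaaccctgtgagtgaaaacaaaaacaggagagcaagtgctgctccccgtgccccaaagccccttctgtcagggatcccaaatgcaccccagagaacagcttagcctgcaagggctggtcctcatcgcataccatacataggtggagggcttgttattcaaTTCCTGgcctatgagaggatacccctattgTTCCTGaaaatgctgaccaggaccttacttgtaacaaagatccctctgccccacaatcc
The first base of each match lay 89 and 59 bases before the start. The 4 motifs were searched on both strands in windows of 300 bases, 250 before the start to 50 after it, which were found for 8 of the 10 genes (9 promoters). The ETS core CAGGAA stood in 4 of the 9 (Tek, Tie1, Vegfa and Vegfc) and in 30.6% of all 32851 promoters of the table. The hypoxia element core ACGTG stood in 1 of the 9, at a Vegfa start inside the gene, and in 19.6% of all promoters. The AP-1 site TGANTCA (7.81% of all promoters) and the FOXO core TGTTTAC (3.65%) matched none of the 9. The RefSeq starts used for Tie1 and Nrp1 also lie inside the genes as GENCODE gives them. A match is a stretch of letters and was not tested as a binding site.

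The libraries held 5170, 5992 and 7717 barcodes in treated mice 1, 2 and 3, and 2384, 11349 and 12207 in vehicle mice 1, 2 and 3, with 22996012 to 126645602 UMIs (unique molecules) each. After filters 37002 cells were kept. Their median depth was 8418 to 11143 UMIs in treated and 2980.5 to 4692 UMIs in vehicle mice, and libraries shared 0 to 22 barcodes with each other. Vehicle 1 stood apart as the library with the fewest UMIs in total, the fewest barcodes and the fewest endothelial cells. Treated 1 and treated 2 resembled each other, alone holding 2 of the tumour clusters. Cell classes were named from marker genes that include none of the 10 members. Endothelial cells numbered 223, 212 and 155 in treated and 46, 298 and 226 in vehicle mice, with median depths of 5815, 5786 and 9003 UMIs in treated and 2350.5, 5067 and 4880.5 UMIs in vehicle mice; all 14 endothelial markers had UMIs, and they summed to 10690 to 11620 CPM in treated and 8652 to 10660 CPM in vehicle mice. Levels below are CPM, the UMIs of a gene in a class and mouse scaled to the same total of UMIs in every class and mouse.

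Kdr, Flt1, Tek, Tie1 and Ptprb were higher in endothelial cells than in any other class, without overlap, whereas the VEGF ligands were spread over several classes. Over the 6 mice, Vegfa averaged 118 ± 40.6 CPM in fibroblasts, 91.4 ± 42.7 CPM in neutrophils, 72.9 ± 35.4 CPM in macrophages and monocytes, and 72.4 ± 32.1 CPM in tumour and ductal epithelial cells (SD, n = 6). The ranges of those 4 neighbours overlapped, so their order is not fixed. In endothelial cells Vegfa averaged 10.2 ± 7.80 CPM. Vegfb, a ligand of FLT1 known mainly from heart and fat, averaged 48.7 ± 17.8 CPM in tumour cells and 26.7 ± 16.8 CPM in fibroblasts, again with overlap. Vegfc, the ligand that drives lymphatic vessels through FLT4, averaged 31.6 ± 16.7 CPM in endothelial cells, 26.7 ± 14.5 CPM in fibroblasts and 14.97 ± 16.3 CPM in tumour cells.

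Kdr averaged 599 ± 128 CPM in endothelial cells, with a range of 510 to 853 CPM that lay above every fibroblast value, whose mean was 9.11 CPM and whose highest value was 25.0 CPM. In pericytes no Kdr UMI was found in any of 5 mice, which allows up to 7.32 to 17.8 CPM (3 counts per mouse). Flt1 averaged 848 ± 150 CPM in endothelial cells (n = 6), 215 ± 82.5 CPM in pericytes (n = 5) and 36.3 ± 19.6 CPM in tumour cells (n = 6), and no range overlapped the one above it. Nrp1 was shared by vessel and stroma: 298 ± 101 CPM in endothelial cells, 202 ± 105 CPM in pericytes and 184 ± 97.0 CPM in fibroblasts, with overlapping ranges, and then 52.0 ± 13.0 CPM in T and NK lymphocytes, a range below that of fibroblasts that overlapped that of pericytes.

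Angpt2 averaged 151 ± 80.7 CPM in endothelial cells and 61.1 ± 21.7 CPM in pericytes, ranges that overlapped by a single pericyte value of 83.0 CPM, and 2.61 ± 1.66 CPM in tumour cells. Tek averaged 132 ± 30.7 CPM, Tie1 347 ± 62.9 CPM and Ptprb 748 ± 345 CPM in endothelial cells. The next class of each averaged 3.00 CPM for Tek (fibroblasts), 3.28 CPM for Tie1 (pericytes) and 10.1 CPM for Ptprb (fibroblasts), without overlap with the endothelial range. The members were left out of the genes used for clustering. No test was run on these levels by class, which are a description.

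**Figure D1:**
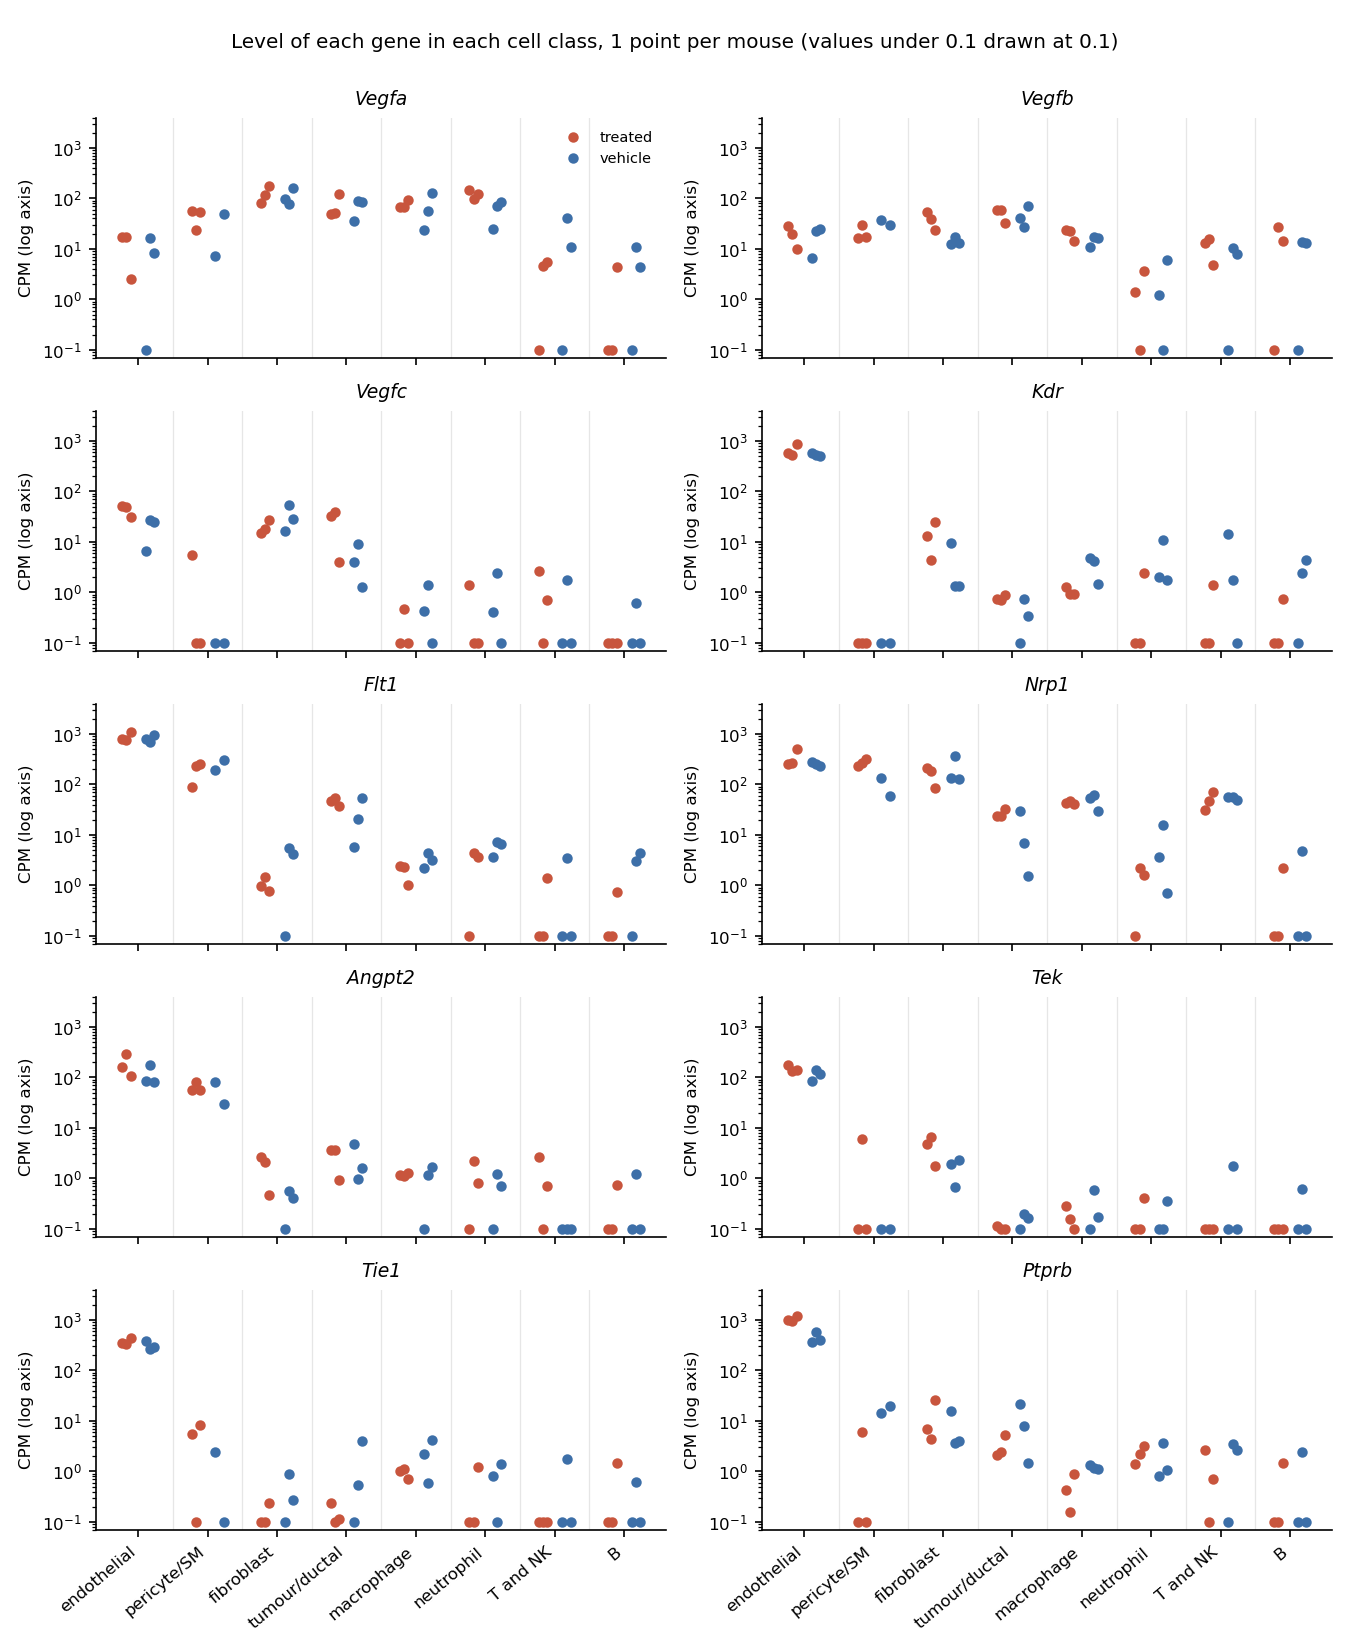
Level of each of the 10 genes by cell class, 1 point per mouse (CPM on a log axis, values under 0.1 drawn at 0.1), treated left of vehicle within each class. Kdr, Tek, Tie1 and Ptprb are high in the endothelial class alone, Nrp1 is shared with pericytes and fibroblasts, and Vegfa points of fibroblasts, neutrophils, macrophages and tumour cells overlap.

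Tumour cells held the largest share of Vegfa molecules in each of the 6 mice. They held 57.0%, 62.0% and 43.0% of all Vegfa UMIs of the kept cells in treated mice 1, 2 and 3, against 70.0%, 74.6% and 66.8% in vehicle mice 1, 2 and 3. All 3 treated shares lay below all 3 vehicle shares. The means were 54.0% ± 9.86 in treated and 70.5% ± 3.90 in vehicle mice (SD, n = 3 each), a difference of -16.4 percentage points; the exact two-sided permutation test gave p = 0.1, the smallest that 3 against 3 mice allow, and 0.64 after adjustment over 16 such shares. Macrophages held 12.7%, 10.2% and 29.0% of Vegfa UMIs in treated and 7.23%, 5.50% and 14.3% in vehicle mice, and these groups overlapped (exact permutation p = 0.3). Cells left unnamed held 13.96%, 13.6% and 1.83% in treated and 0.402%, 0.901% and 4.00% in vehicle mice, and their part in the lower tumour shares of treated 1 and 2 was not tested. The tumour class also held the most UMIs over all genes in each mouse (14363868 to 80545507). Its Vegfa level overlapped those of fibroblasts, neutrophils and macrophages. Tumour cells were 1565 of 3941, 2140 of 5153 and 897 of 5991 kept cells in treated mice. They were 789 of 2144, 3401 of 9469 and 2600 of 10304 in vehicle mice. Treated 3 had the lowest tumour share but the highest tumour level (123 CPM). The part of cell numbers and depth in the shares was not tested.

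The other ligands had fewer molecules behind them. Tumour cells held 76.6%, 82.0% and 55.0% of Vegfb UMIs in treated and 92.0%, 76.9% and 90.4% in vehicle mice (exact permutation p = 0.2), with overlap through treated 2 and vehicle 2. For Vegfc, tumour cells led in treated 1 and 2 with 79.5% and 80.6%, and fibroblasts led in treated 3 with 62.3%. In vehicle mice the tumour share of Vegfc was 71.6%, 38.3% and 27.7%, and the fibroblast share was 21.0%, 56.6% and 57.9%. Endothelial cells held 55.1%, 65.2% and 65.2% of Angpt2 UMIs in treated and 14.9%, 74.7% and 45% in vehicle mice (exact permutation p = 0.4). The low value was vehicle 1, with 87 Angpt2 UMIs in all and few endothelial cells. No share passed after adjustment, and every comparison has the same floor of 0.1.

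**Figure D2:**
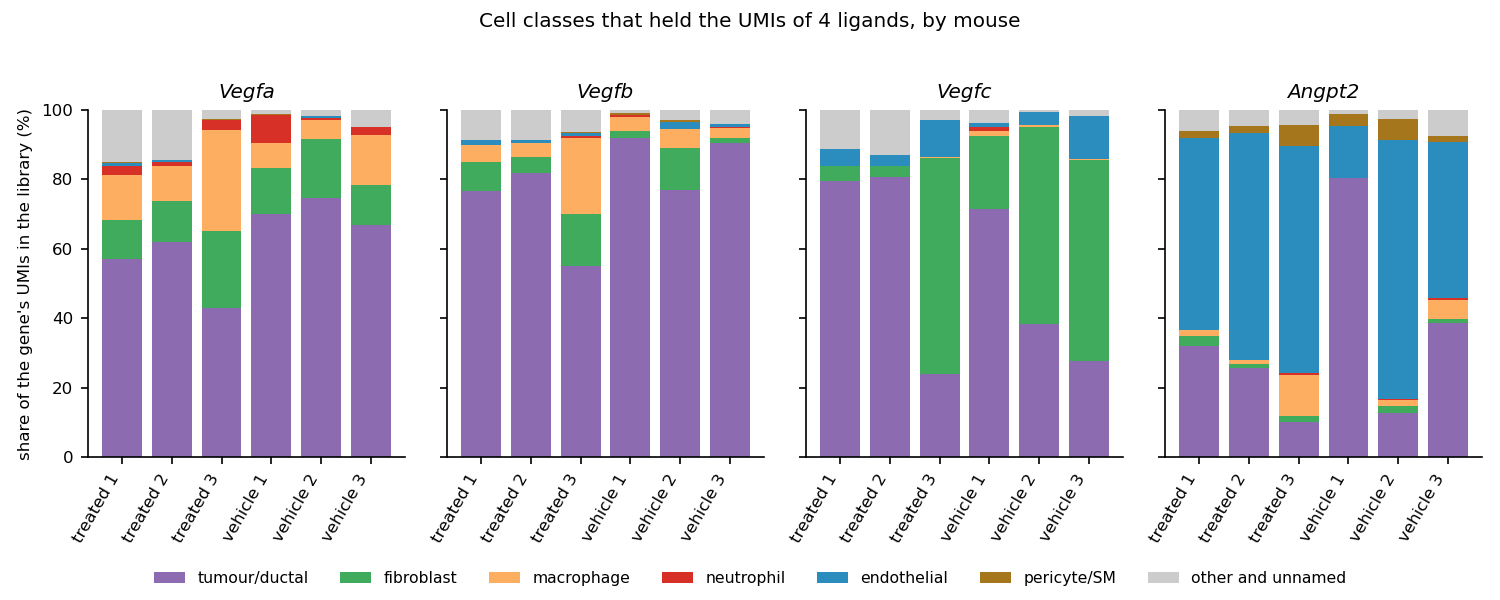
Share of the UMIs of Vegfa, Vegfb, Vegfc and Angpt2 held by each cell class, 1 stacked bar per mouse (percent, from 0), treated mice left of vehicle mice. The tumour share of Vegfa is 43.0% to 62.0% in treated and 66.8% to 74.6% in vehicle mice, and endothelial cells hold 14.9% of Angpt2 in vehicle 1.

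Within the endothelial class, none of the 10 members passed the test between treated and vehicle mice, and the nearest was Ptprb, with a log2 fold change of 1.11. edgeR's quasi-likelihood test on counts summed per mouse called 57 of 9911 genes (0.575%) at a Benjamini-Hochberg adjusted p of 0.05, of which 7 were higher (0.0706%) and 50 lower (0.504%) in treated mice. That count was 0 without treated 1, 0 without treated 2, 125 without treated 3, 370 without vehicle 1, 28 without vehicle 2 and 2 without vehicle 3. Of the 10 members, all tested, 0 were called and 2 (Ptprb and Vegfc) had an unadjusted p under 0.05, as did 17.5% of all genes; DESeq2 called 134 genes (1.35%), Ptprb among them. Fold changes of 8 of the 10 were above 0, as were 52% of all genes, with a median of 0.21 on the log2 scale beside 0.02 for all genes. Groups did not overlap for 2 of the 10 members, both higher in treated mice, beside 25.9% of all genes in either direction and 16.9% in that direction. Each library is a mouse of its own, so these p-values measure the spread between 3 treated and 3 vehicle mice.

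Kdr stood at 582, 533 and 853 CPM in treated and 577, 538 and 510 CPM in vehicle endothelium. Treated 3 was high and the other 5 mice were alike, so the groups overlapped. The means were 656 ± 173 CPM in treated endothelium and 542 ± 33.7 CPM in vehicle endothelium (SD, n = 3 each), with a log2 fold change of 0.17 ± 0.25 (SE) and an adjusted p of 0.776 in edgeR. Flt1, the VEGF trap among the receptors, stood at 777, 751 and 1101 CPM in treated and 811, 698 and 949 CPM in vehicle endothelium, with treated 3 again highest and full overlap. Its log2 fold change was -0.02 ± 0.26. Nrp1 stood at 252, 271 and 500 CPM in treated and 279, 252 and 232 CPM in vehicle endothelium, and treated 3 alone separated from the other 5 mice (log2 fold change 0.33 ± 0.29, edgeR adjusted p 0.599). Without treated 3 the log2 fold change was -0.08 for Kdr and -0.06 for Nrp1.

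Ptprb stood at 1014, 935 and 1191 CPM in treated and 370, 574 and 401 CPM in vehicle endothelium. Every treated mouse lay above every vehicle mouse, in classes whose makeup by cluster differed between mice (cell numbers are given with the vessel types). The means were 1047 ± 131 CPM in treated endothelium and 448 ± 110 CPM in vehicle mice (SD, n = 3 each), and the log2 fold change was 1.11 ± 0.24 (SE), with an unadjusted p of 0.000715 and an adjusted p of 0.0755 in edgeR, rank 93 of 9911 genes. Leaving out vehicle 1 gave 1.04 with an adjusted p of 0.0351, and leaving out another mouse gave 1.00 to 1.28 with adjusted p-values of 0.05598 to 0.274. The share of endothelial cells with a Ptprb UMI, after each cell was thinned to 1000 UMIs, was 57.6%, 60.2% and 74.5% in treated and 25.7%, 40.1% and 36.7% in vehicle mice, again without overlap. Unthinned shares were 86.1%, 85.4% and 91.0% in treated and 50%, 73.8% and 74.8% in vehicle mice, and thinning left out 14 to 18 cells per treated and 11 to 31 cells per vehicle mouse. In B lymphocytes, which should lack the gene, at most 0.521% of cells held a Ptprb UMI, at median depths of 3248 to 3412 UMIs in treated and 1201 to 1943 UMIs in vehicle mice.

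Measures of RNA content in the same endothelial cells also separated the groups. Gm42418, a gene whose reads come largely from ribosomal RNA, stood at 75880, 98940 and 47170 CPM in treated and 350, 7680 and 12010 CPM in vehicle endothelium. Lars2, a mitochondrial tRNA synthetase gene, stood at 2593, 2835 and 1318 CPM in treated and 13.0, 308 and 538 CPM in vehicle endothelium. The median mitochondrial share was 4.85%, 5.28% and 4.95% in treated and 1.62%, 5.53% and 3.97% in vehicle mice, and overlapped. Without the cluster led by Lars2, chosen after seeing the data, Ptprb kept a log2 fold change of 1.09 (edgeR adjusted p 0.0888). The part of these measures in the Ptprb difference was not tested beyond that.

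The Tie receptors overlapped between the groups. Tek, the angiopoietin receptor, stood at 177, 132 and 141 CPM in treated and 84.4, 139 and 115 CPM in vehicle endothelium, lowest in vehicle 1 (log2 fold change 0.25 ± 0.21, edgeR adjusted p 0.578). Tie1, its partner without a tightly bound ligand, stood at 349, 338 and 446 CPM in treated and 383, 271 and 293 CPM in vehicle endothelium (0.17 ± 0.25, edgeR adjusted p 0.765). Angpt2 varied widely between mice, at 163, 296 and 108 CPM in treated and 84.4, 175 and 82.9 CPM in vehicle endothelium. Treated 2 and vehicle 2 were high within their groups, and the log2 fold change was 0.58 ± 0.41 (edgeR adjusted p 0.511). It was 0.10 without treated 2, 0.13 without dividing cells and 0.12 without lymphatic-like cells, and 1.02 without vehicle 2, with adjusted p-values of 0.262 to 0.988 over the alternatives.

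Among the ligands, endothelial Vegfc stood at 51.6, 48.7 and 30.7 CPM in treated and 6.49, 27.1 and 24.9 CPM in vehicle endothelium. The groups did not overlap, and vehicle 1 rested on few molecules, since 1 UMI is worth 6.49 CPM there. The means were 43.7 ± 11.3 CPM in treated endothelium and 19.5 ± 11.3 CPM in vehicle mice, with a log2 fold change of 0.76 ± 0.30, an unadjusted p of 0.0269 and an adjusted p of 0.227 in edgeR (0.66 and 0.174 without vehicle 1). Endothelial Vegfa (2.51 to 17.5 CPM in treated and 0 to 16.3 CPM in vehicle mice) and Vegfb (10.1 to 27.9 CPM in treated and 6.49 to 24.4 CPM in vehicle mice) overlapped. The sign of the fitted fold differed from that of the CPM means in 7 of 33 member tests, those of Flt1 and Vegfb here, Vegfa, Vegfb and Angpt2 in tumour cells, Vegfa in fibroblasts and Nrp1 in T and NK lymphocytes, and the cause was not tested.

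**Figure D3:**
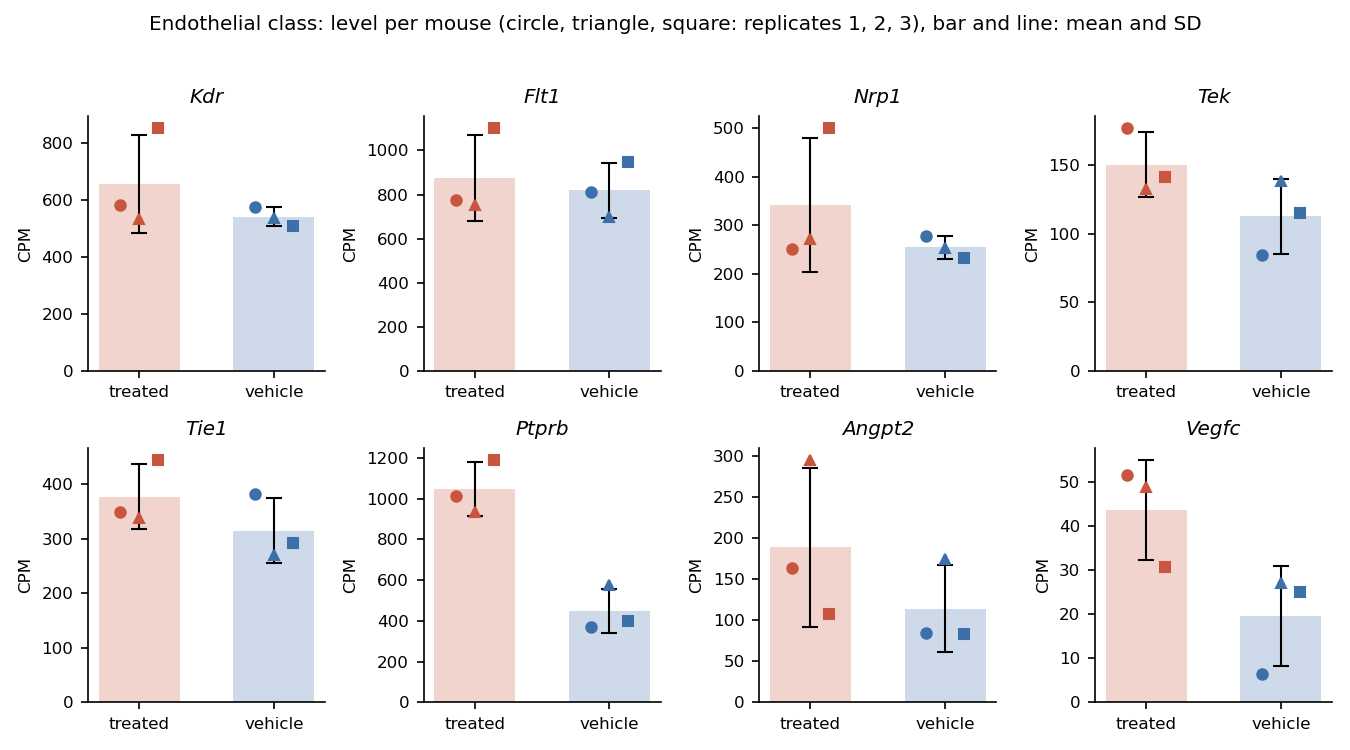
Level of 8 of the genes in endothelial cells of each mouse (CPM), treated left of vehicle, with points for mice (circle, triangle and square for replicates 1, 2 and 3), and a bar and line for the group mean and SD. Ptprb shows 935 to 1191 CPM in treated and 370 to 574 CPM in vehicle mice without overlap, Vegfc is also apart, and Kdr, Flt1 and Nrp1 are highest in treated 3.

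Outside the endothelium, 0 of 23 tests of a member passed. The members were tested where their counts allowed, 9 in tumour cells, 7 in fibroblasts, 5 in macrophages, 1 in neutrophils and 1 in T and NK lymphocytes. In those classes edgeR called 0 of 15339 genes in tumour cells, 0 of 12475 in fibroblasts, 0 of 11635 in macrophages, 0 of 7797 in neutrophils and 6 of 5039 in T and NK lymphocytes (0.119%). Unadjusted p-values under 0.05 numbered 1708 in tumour cells (11.1%), 1898 in fibroblasts (15.2%), 1242 in macrophages (10.7%), 377 in neutrophils (4.84%) and 200 in T and NK lymphocytes (3.97%). Among the members tested they numbered 1 in tumour cells, 2 in fibroblasts, 1 in macrophages, 0 in neutrophils and 0 in T and NK lymphocytes. In the same classes DESeq2 called 359 (2.34%), 297 (2.38%), 273 (2.35%), 2 (0.0257%) and 11 genes (0.218%). Groups did not overlap for 0 of 9 members in tumour cells (23% of all genes), 1 of 7 in fibroblasts (24.6%), 1 of 5 in macrophages (17.3%), 1 of 1 in neutrophils (8.64%) and 0 of 1 in T and NK lymphocytes (10.3%).

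Fibroblast Vegfb was the nearest of these. It stood at 54.4, 38.9 and 24.1 CPM in treated and 12.6, 16.9 and 13.1 CPM in vehicle fibroblasts. All treated values lay above all vehicle values, as for 18.9% of fibroblast genes. The means were 39.2 ± 15.2 CPM in treated fibroblasts and 14.2 ± 2.38 CPM in vehicle mice (SD, n = 3 each), the log2 fold change was 1.29 ± 0.31, and the adjusted p was 0.206 in edgeR and 0.0386 in DESeq2. Vegfb in tumour cells overlapped fully, at 60.1, 59.98 and 32.2 CPM in treated and 40.7, 27.3 and 71.7 CPM in vehicle mice.

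Vegfa, the central ligand, gave no called difference in any class. In tumour cells it stood at 49.9, 52.3 and 123 CPM in treated and 36.4, 87.3 and 85.5 CPM in vehicle mice. Treated 3 was the highest and vehicle 1 the lowest of the 6 mice, and the log2 fold change was -0.26 ± 0.52 (edgeR adjusted p 0.864). In fibroblasts it stood at 82.3, 117 and 172 CPM in treated and 95.8, 78.4 and 162 CPM in vehicle mice (-0.02 ± 0.38), and in macrophages at 68.8, 67.0 and 94.6 CPM in treated and 23.6, 55.7 and 128 CPM in vehicle mice (0.21 ± 0.47). Both pairs of groups overlapped. In neutrophils, Vegfa stood at 148, 98.6 and 123 CPM in treated and 24.6, 71.1 and 83.9 CPM in vehicle mice, without overlap. There the log2 fold change was 0.89 ± 0.47 and the edgeR adjusted p 0.852 (0.59 and 0.889 without vehicle 1); 5.64% of neutrophil genes were higher in all treated mice.

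Vegfc in tumour cells split the treated mice. It stood at 32.8, 38.5 and 3.92 CPM in treated and 4.04, 9.27 and 1.27 CPM in vehicle mice. Treated 1 and 2 were high, and treated 3 lay among the vehicle mice. The log2 fold change was 2.12 ± 0.95 (edgeR adjusted p 0.463), and 2.61 without treated 3 (adjusted p 0.227). In the tumour clusters 27 and 30, which only treated 1 and 2 held, Vegfc stood at 37.7 to 45.1 CPM. In fibroblasts Vegfc stood at 15.2, 18.0 and 27.7 CPM in treated and 16.4, 53.7 and 29.0 CPM in vehicle mice, with vehicle 2 high (log2 fold change -0.87 ± 0.39, edgeR adjusted p 0.344).

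In the other classes tested, receptor genes were low or overlapped between the groups. Kdr in macrophages stood at 1.30, 0.946 and 0.910 CPM in treated and 4.81, 4.16 and 1.47 CPM in vehicle mice. The groups did not overlap, as for 11.1% of macrophage genes in that direction, and the levels were far below the endothelial ones (log2 fold change -1.63 ± 0.57, edgeR adjusted p 0.371). Nrp1, which marks some macrophages and regulatory T cells, stood at 43.5, 47.9 and 40.8 CPM in treated and 54.2, 62.9 and 29.1 CPM in vehicle macrophages. In fibroblasts Nrp1 stood at 208, 186 and 83.9 CPM in treated and 134, 360 and 130 CPM in vehicle mice, and both overlapped. Fibroblast Kdr ran from 1.36 to 25.0 CPM and Tek from 0.681 to 6.49 CPM over the 6 mice, and the groups overlapped for each. Over the alternatives, fibroblast log2 fold changes ran from 1.555 to 3.306 for Kdr and from 0.739 to 2.13 for Tek. Neither was called under any of them (lowest adjusted p 0.1165 for Kdr and 0.334 for Tek, edgeR or DESeq2). Flt1 in tumour cells stood at 46.5, 54.2 and 36.7 CPM in treated and 5.64, 20.7 and 54.1 CPM in vehicle mice, and vehicle 3 kept the groups overlapping. Tie1 in tumour cells had an unadjusted p of 0.0319 on levels of 0.0604 to 0.234 CPM in treated and 0.0696 to 3.94 CPM in vehicle mice.

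Pericytes were too few for a test over 6 mice. Flt1 stood at 88.9, 231 and 253 CPM in treated 1, 2 and 3 and at 190 and 310 CPM in vehicle 2 and 3. Nrp1 stood at 228, 261 and 326 CPM in those treated mice and at 134 and 60.03 CPM in those vehicle mice. The Nrp1 values did not overlap and the Flt1 values did, on sums of 22 to 59 cells per mouse. The share of all pericyte genes that separate in this way was not computed, so nothing is read from the separation.

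**Figure D4:**
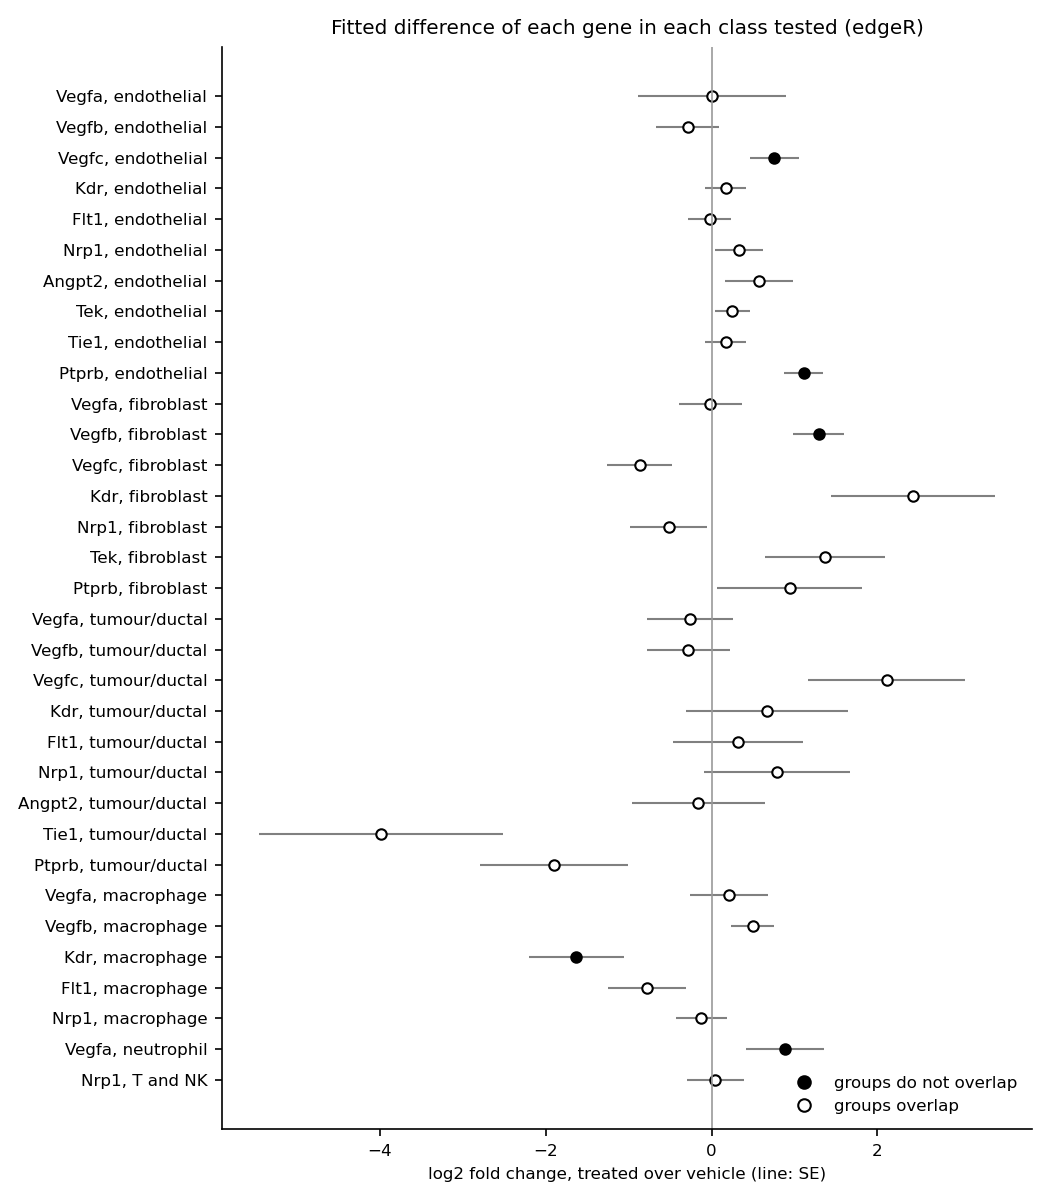
Log2 fold change, treated over vehicle, of each member in each class where it was tested, with its SE from edgeR; filled points mark groups that do not overlap. None passed at an adjusted p of 0.05; endothelial Ptprb (1.11) and fibroblast Vegfb (1.29) stand farthest from 0 relative to their SE.

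Whether a member responded differently in 2 classes was tested in 4 pairs of classes, with a term for mouse. None of 38 such tests passed the adjustment in edgeR, and 16 had an unadjusted p under 0.05. The pair fits called 0 of 15478 genes for tumour against macrophage, 0 of 15365 for tumour against fibroblast, 0 of 11726 for endothelial against fibroblast and 13 of 11466 for endothelial against macrophage (0.113%), with 1789, 1216, 1076 and 1419 unadjusted p-values under 0.05. The smallest unadjusted p was that of Vegfb, 0.0006, whose log2 fold change in endothelium was lower than that in fibroblasts by a difference of -1.53 ± 0.31 (edgeR adjusted p 0.176). For Ptprb the endothelial fold exceeded the macrophage one by 2.07 ± 0.44 (edgeR adjusted p 0.117), and for Vegfc the endothelial fold exceeded the fibroblast one by 1.83 ± 0.45 (edgeR adjusted p 0.262). The pair fits kept members that were too low for a test in 1 of the 2 classes. Ptprb was such a member, at 0.158 to 1.31 CPM in macrophages, so its macrophage fold rests on few molecules and nothing is read from the difference. Others with an unadjusted p under 0.05 were Vegfc and Tie1 in macrophages (means of 0.408 and 1.625 CPM over 6 mice). Flt1 and Tie1 in fibroblasts (2.15 and 0.2325 CPM) and Tek in tumour cells (0.103 CPM) were as well. Nothing is therefore read from the count of 16.

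Endothelial cells fell into 9 clusters when clustered without the members, of which 4 could be named from vessel markers. Lymphatic-like cells numbered 35, 56 and 5 in treated and 0, 58 and 18 in vehicle mice. Venous-like cells numbered 59, 50 and 22 in treated and 2, 46 and 25 in vehicle mice, and tip-like cells, with genes of sprouting vessel ends, 15, 20 and 41 in treated and 2, 4 and 39 in vehicle mice. Arterial-like cells numbered 29 in all. An unnamed cluster led by S100a8, a neutrophil gene, held 39 of the 46 endothelial cells of vehicle 1. A cluster of dividing cells led by Ube2c and Mki67 held 9, 1 and 9 cells in treated and 0, 61 and 60 cells in vehicle mice, and a cluster led by Reg1, an acinar gene, held 8, 7 and 1 cells in treated and 0, 7 and 41 cells in vehicle mice. Levels are given for mice with at least 10 cells of a cluster, with no test.

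The members divided the vessel types. Angpt2 was highest in lymphatic-like cells, at 440 and 732 CPM in treated 1 and 2 and 592 and 349 CPM in vehicle 2 and 3. Tip-like cells had 88.2, 289 and 123 CPM in treated mice and 91.3 CPM in vehicle 3, and venous-like cells 59.8, 69.0 and 27.6 CPM in treated mice and 84.7 and 102 CPM in vehicle 2 and 3. Flt1 and Nrp1 were near 0 in lymphatic-like cells: Flt1 stood at 16.4 and 10.3 CPM in treated 1 and 2 and at 0 and 63.4 CPM in vehicle 2 and 3, and Nrp1 reached at most 2.05 CPM. Kdr and Tie1 were present in every type.

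An unnamed cluster led by Ptn, which held 41, 39 and 57 cells in treated and 2, 48 and 18 cells in vehicle mice, had high VEGF receptor levels. Its Flt1 level was 1800, 1879 and 1918 CPM in treated mice and 1798 and 1894 CPM in vehicle 2 and 3, and its Kdr level was 1193, 868 and 1236 CPM in treated mice and 1008 and 765 CPM in vehicle 2 and 3. Arterial-like cells had 298 CPM of Vegfc in treated 1 (10 cells, 19 UMIs) and 94.3 CPM in vehicle 2 (11 cells, 15 UMIs), with no other mouse to compare. In the Ptn-led cluster Vegfc stood at 93.4, 151 and 84.4 CPM in treated mice and at 100.5 and 77.1 CPM in vehicle 2 and 3, with overlap, and it was at most 7.92 CPM in lymphatic-like cells.

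Ptprb was also read within vessel types. In venous-like cells Ptprb stood at 1365, 1516 and 1375 CPM in treated mice and at 1066 and 1185 CPM in vehicle 2 and 3. In the Ptn-led cluster it stood at 1412, 1226 and 1705 CPM in treated mice and at 979 and 567 CPM in vehicle 2 and 3, and in lymphatic-like cells at 353 and 326 CPM in treated 1 and 2 and 206 and 182 CPM in vehicle 2 and 3. Treated values were the higher ones in these 3 types and in tip-like cells, where treated mice had 732 to 1040 CPM and vehicle 3, alone, 413 CPM. With 1 to 3 mice a group, the share of all genes that separate in this way was not computed, so nothing is read from the separation. In the S100a8-led cluster the groups overlapped, at 292, 519 and 499 CPM in treated and 256, 344 and 228 CPM in vehicle mice. The clusters held mostly by vehicle 2 and 3 were low in Ptprb, at 416 and 315 CPM in the dividing cluster of vehicle 2 and 3 and 402 CPM in the Reg1-led cluster of vehicle 3. The part of this makeup in the difference over the whole class was measured only in part. Left out, one at a time, were the Lars2-led cluster and cells with UMIs of at least 2 dividing genes or of at least 2 lymphatic markers. The last 2 sets were picked cell by cell and are not the dividing and lymphatic-like clusters, and the other clusters were not left out. Without lymphatic-like cells picked in this way the log2 fold change was 1.25 (edgeR adjusted p 0.0273).

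**Figure D5:**
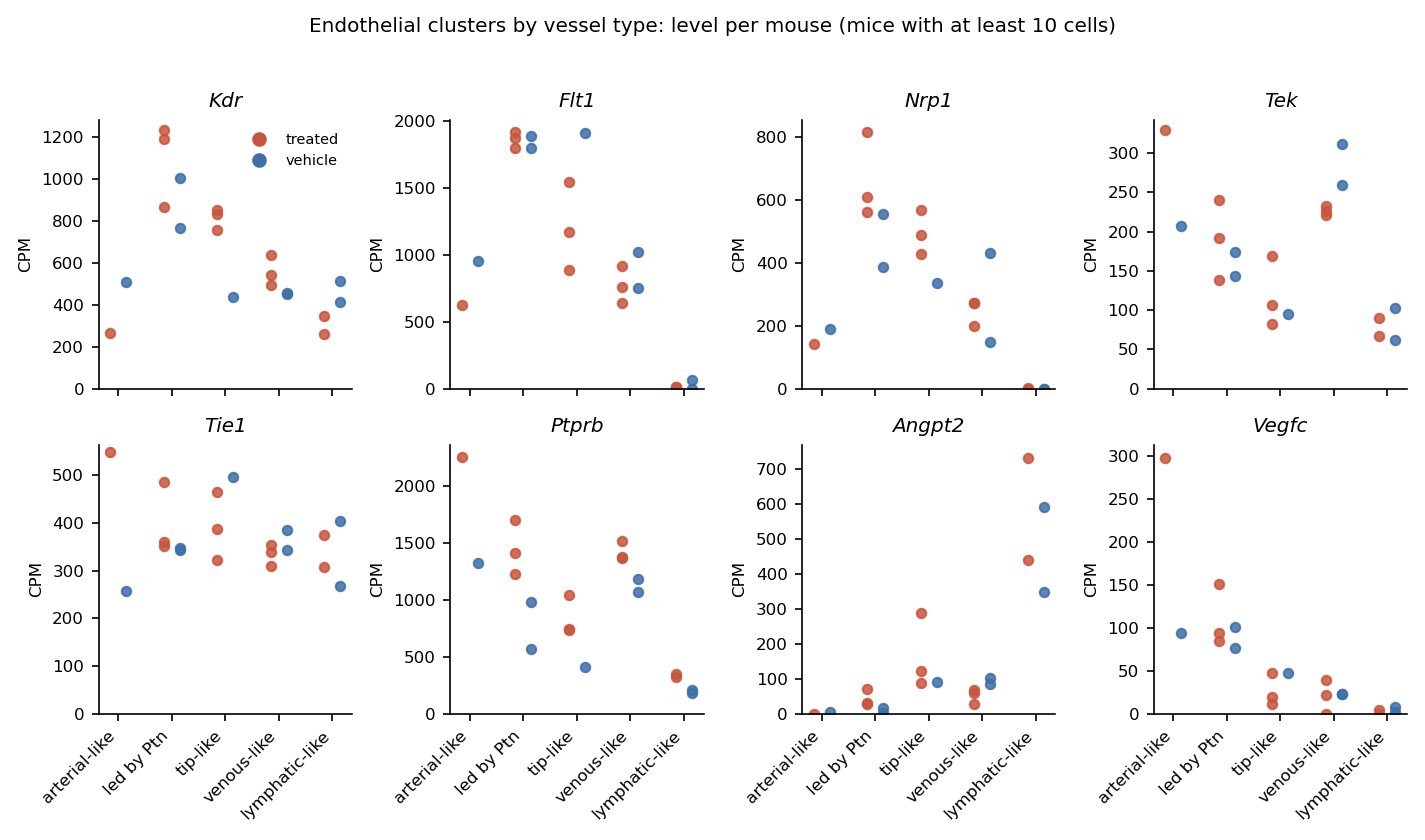
Level of 8 members in 5 of the endothelial clusters, 1 point per mouse with at least 10 cells of the cluster (CPM), treated left of vehicle. Angpt2 is highest in lymphatic-like cells, Flt1 and Nrp1 are near 0 there, and the Ptprb points of treated mice lie above those of the 1 or 2 vehicle mice shown in venous-like, lymphatic-like, tip-like and Ptn-led cells, with no test.

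Other genes of the pathway gave no call in endothelium except among genes of dividing cells. With the non-members Vegfd, Pgf, Flt4, Nrp2, Angpt1, Angpt4 and Svep1 added, 4 of 5 VEGF ligands, 5 of 5 VEGF receptors and co-receptors and 4 of 7 angiopoietin and Tie genes were tested and 0 passed, with median log2 fold changes of -0.11, 0.17 and 0.41. Pgf, a ligand of FLT1, had a log2 fold change of -0.22. Of 18 genes known to respond to VEGF in endothelium, 18 were tested, 0 passed in either direction and 8 were above 0, with a median log2 fold change of -0.10 beside 0.02 for all genes. Igfbp3, a secreted binding protein of insulin-like growth factors, stood at 1042, 914 and 1841 CPM in treated and 2887, 971 and 1292 CPM in vehicle endothelium, and Aplnr, the apelin receptor, at 350, 307 and 444 CPM in treated and 286, 369 and 351 CPM in vehicle endothelium. Both overlapped. Of 19 genes that carry the VEGF receptor signal, 16 were tested, 0 passed and 9 were above 0 (median 0.14). Among them Rac1, a GTPase of cell movement, had a log2 fold change of -0.25 and Mapk3, the kinase ERK1 downstream of MEK, one of -0.18.

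The branch in which TIE2 restrains the factor FOXO1 was measured by 9 genes, of which 7 were tested, 0 passed and 7 were above 0 (median 0.51 beside 0.02 for all genes). In fibroblasts 7 of 7 tested genes were above 0 (median 0.74), in neutrophils 7 of 8 (median 0.40 beside -0.06 for all genes) and in macrophages 6 of 9 (median 0.31). In tumour cells 4 of 9 were above 0 (median -0.15), in T and NK lymphocytes 4 of 7 (0.02) and in B lymphocytes 3 of 5 (0.05). Of this list 0 passed in any of these classes, and the part of TIE2 in these folds was not tested. Klf4, a factor induced by blood flow, stood at 634, 685 and 470 CPM in treated and 130, 380 and 287 CPM in vehicle endothelium. The groups did not overlap, and the log2 fold change was 1.01 ± 0.31 (edgeR adjusted p 0.1505). Klf2, another flow-induced factor, stood at 1137, 1073 and 652 CPM in treated and 571, 635 and 350 CPM in vehicle endothelium, also without overlap (0.78 ± 0.30, edgeR adjusted p 0.220). Of the hypoxia genes, 13 of 14 were tested, 0 passed and 8 were above 0 in endothelium (median 0.20). Ldha, the lactate dehydrogenase of glycolysis, stood at 264, 281 and 289 CPM in treated and 422, 389 and 502 CPM in vehicle endothelium, without overlap (-0.77 ± 0.22, edgeR adjusted p 0.131), and Aldoa, an aldolase of glycolysis, overlapped (-0.43). The hypoxia list had a median log2 fold change of -0.56 in tumour cells, where the median of all genes was -0.06, of 0.40 in macrophages and 0.59 in fibroblasts, where it was near 0, and of -0.26 in neutrophils, where it was -0.06, with no gene called in these classes.

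Notch genes of endothelium (9 of 10 tested, 0 passed, 5 above 0, median 0.04) and junction genes (8 of 9 tested, 0 passed, 7 above 0, median 0.28) gave no call. Pecam1, an adhesion protein of endothelial junctions, stood at 1197, 1100 and 1259 CPM in treated and 908, 929 and 756 CPM in vehicle endothelium without overlap (0.35, edgeR adjusted p 0.447), and Plvap, of fenestrated vessels, had a log2 fold change of 0.00. Genes of dividing cells were the exception: 9 of 10 were tested, 9 were below 0 (median -2.98) and 2 were called lower. The list stood at 246.3, 161.7 and 235.9 CPM in treated and 214.1, 1179 and 732.5 CPM in vehicle endothelium, with vehicle 1 among the treated mice. Elsewhere 10 of 10 were below 0 in macrophages (median -1.35), neutrophils (-2.20) and fibroblasts (-1.36), 9 of 10 in tumour cells (-0.55) and 5 of 9 in T and NK lymphocytes (-0.02), with 0 called. Mcm5, a subunit of the replication helicase, stood at 5.46, 3.90 and 11.1 CPM in treated and 26.0, 39.2 and 37.4 CPM in vehicle endothelium, and Ccnb2, a mitotic cyclin, at 6.07, 1.30 and 7.04 CPM in treated and 26.0, 63.8 and 28.2 CPM in vehicle endothelium. Neither pair of groups overlapped, and the vehicle 1 values of both genes rested on few molecules. The log2 fold changes were -2.46 ± 0.35 for Mcm5 and -3.19 ± 0.47 for Ccnb2, with edgeR adjusted p-values of 0.0255 and 0.0286. Cells with UMIs of at least 2 dividing genes made up 18.4%, 14.2% and 22.6% of treated and 10.9%, 38.6% and 32.3% of vehicle endothelium, so that vehicle 1 was lowest and vehicle 2 and 3 were highest. These shares were counted without thinning and depend on depth, and vehicle 1 had the lowest median depth (2350.5 UMIs). The part of such dividing cells in the member values was measured by leaving them out: Ptprb then had a log2 fold change of 0.98 with an edgeR adjusted p of 0.546, Vegfc one of 0.46 with an adjusted p of 0.695, and no gene was called. No gene was called without treated 1 or without treated 2 either.

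The genes whose pattern was most like that of 3 members were read over 42 sums, 7 classes in 6 mice, by Pearson's r of log2(CPM + 1). The sums share libraries and classes, so r is a description of where genes are expressed. Angpt2 was most like Gja4 (0.957), Myct1 (0.953), Cyyr1 (0.949) and Mmrn2 (0.945). Nrp1 was most like Tmem176a (0.893), Itm2c (0.889), Lamc1 (0.877) and Epas1 (0.874). Vegfa was most like Frrs1 (0.865), Gsn (0.848), Ptgs1 (0.845) and Cxcl1 (0.845), at lower values than the other 2 members.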

How the data were processed

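Tumours of 3 treated and 3 vehicle KPC mice were measured by droplet single-cell RNA sequencing. The authors deposited raw UMI counts per gene and cell barcode, made with Cell Ranger 5.0.1 on mm10, per the submitters' processing notes; the annotation release and the settings are not given in the sources used here. Reads from near-identical sequences can be lost or split in such counts, and free RNA in droplets adds molecules to cells that do not express a gene.

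Cells with at least 500 UMIs, 250 genes and at most 20% mitochondrial UMIs were kept. Doublets were left out by Scrublet score, at a share of 0.8% for each 1000 barcodes of a library (42 to 1115 per library). Cells were clustered (scanpy 1.11.5, 2000 variable genes, 30 components, Leiden resolution 1) and clusters were named from fixed markers; 2357 cells (6.37%) stayed unnamed. Counts were summed per mouse and class, for classes with at least 20 cells in all 6 mice, and tested with edgeR 4.0.16 (TMM, robust quasi-likelihood) in R 4.3.3, with Benjamini-Hochberg adjustment over all genes of a fit. The scripts were tested on simulated data. Depth ran from 22996012 to 126645602 UMIs per library; intervals and limits from counts cover counting error only.

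The members, gene lists and tests were chosen with earlier results of these data known. Named genes were the 10 members, up to 4 called genes of each list or otherwise its 2 most abundant tested genes, and the 4 genes most like Vegfa, Angpt2 and Nrp1 by Pearson's r among genes of at least 20 CPM. Alternatives were DESeq2 1.42.0, its size factors, no filter on low counts, a replicate block, each mouse left out, treated 1 and 2 summed, doublets kept, at most 10% mitochondrial UMIs, at least 1500 UMIs, and endothelium without dividing, lymphatic-like or Lars2-led cells. For these alternatives dividing and lymphatic-like cells were those with UMIs of at least 2 dividing genes or 2 lymphatic markers. Positions come from GENCODE M21 and promoters from RefSeq tables, where Angpt2 and Ptprb were not found. One allele of the mouse model is not reported here.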

Additional observations from a re-analysis of the deposited data

How the results depend on the processing

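The 57 calls in endothelium became 134 in DESeq2, 443 without the filter on low counts, 18 with the replicate block, 0 with treated 1 and 2 summed as 1 sample, 0 without dividing cells and 196 without lymphatic-like cells. Leaving out 1 mouse gave 0 (without treated 1 or treated 2) to 370 (without vehicle 1), with 125 without treated 3, 28 without vehicle 2 and 2 without vehicle 3. Whether the replicate numbers pair the mice is not known. Same-numbered mice correlated at -0.128 to 0.273 and differently numbered mice at -0.285 to 0.181. Deviations from the mean of 3 mice sum to 0, so these values cannot decide it. The count of members called in endothelium was 1 in place of 0, which was Ptprb, in DESeq2 (adjusted p 0.00295), without the filter (0.0109), without lymphatic-like cells (0.0273) and without vehicle 1 (0.0351), a range of 0 to 1 over mice left out. Its log2 fold change was 0.98 to 1.28 over all settings, with adjusted p-values of 0.00295 to 0.546. Without the filter, calls over all genes numbered 62 in macrophages, 4 in neutrophils, 39 in B lymphocytes and 79 in T and NK lymphocytes (0, 0, 0 and 6 with it). In the other 6 classes, 1 member passed in DESeq2 (fibroblast Vegfb) and 1 without the filter (Vegfa in T and NK lymphocytes, -2.38, adjusted p 0.0456). Differences between classes gave 0 to 2 calls over mice left out, 2 without treated 3 (Vegfc, endothelium against fibroblasts, adjusted p 0.0102, and Ptprb, endothelium against macrophages, 0.0206). That Ptprb call rests on macrophage levels of at most 1.31 CPM.

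Of 489 member fold changes under alternatives, 445 kept direction and call, 5 became called and 39 changed sign. Changes of sign were, for fibroblast Vegfa, 0.00146 with the block, 0.11 with treated 1 and 2 summed and 0.0234 with doublets kept; for endothelial Vegfa -0.21, -0.17 and -0.32 under the same settings and -0.13 without lymphatic-like cells; for endothelial Flt1 0.0749 summed, 0.0119 with doublets and 0.21 without lymphatic-like cells; for T and NK Nrp1 -0.0273 in DESeq2 and -0.041 with doublets; and without dividing cells -0.0353 for Tie1 and 0.12 for Vegfb in endothelium. Over mice left out, tumour folds ran from -0.19 to 1.57 for Flt1, -0.55 to 0.62 for Angpt2, -0.83 to 0.0592 for Vegfa and -0.58 to 0.35 for Vegfb. Fibroblast folds ran from -0.76 to 0.0426 for Nrp1, -0.33 to 1.64 for Ptprb and -0.33 to 0.36 for Vegfa, and macrophage folds from -0.42 to 0.12 for Nrp1 and -0.14 to 0.98 for Vegfa. Endothelial folds ran from -0.0817 to 0.30 for Kdr, -0.23 to 0.12 for Flt1, -0.0642 to 0.52 for Nrp1, -0.31 to 0.61 for Vegfa and -0.62 to 0.0307 for Vegfb, and T and NK Nrp1 from -0.33 to 0.24. Over all alternatives, endothelial folds ran from 0.46 to 0.95 for Vegfc, 0.10 to 1.02 for Angpt2 and 0.15 to 0.37 for Tek. The shares of ligand UMIs could not pass under any setting, since 3 against 3 mice allow no p under 0.1. The cause of these changes was not tested.

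With 3 mice a group and 46 endothelial cells in vehicle 1, a missed threshold does not show that levels were alike.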

Other observations

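Other ligands of these receptors were read outside the members, chosen after their values were seen. Angpt1, the ligand that activates TIE2, stood at 58.5, 47.3 and 50.4 CPM in treated and 40.6, 19.6 and 32.8 CPM in vehicle fibroblasts, without overlap (log2 fold change 0.62 ± 0.32, edgeR adjusted p 0.391). Pgf, a ligand of FLT1, stood at 10.9, 10.5 and 5.26 CPM in treated and 28.5, 14.01 and 22.9 CPM in vehicle tumour cells, also without overlap (-1.65 ± 0.43, edgeR adjusted p 0.429), and at 44.9, 27.9 and 25.6 CPM in treated and 32.4, 43.8 and 28.7 CPM in vehicle endothelium, with overlap (-0.22). Vegfd, a lymphatic growth factor, stood at 150, 79.8 and 28.1 CPM in treated and 31.9, 98.7 and 55.9 CPM in vehicle fibroblasts, with overlap (0.30).

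In endothelium, 2 more genes were chosen after their values were seen. Plaur, the urokinase receptor, stood at 30.3, 33.1 and 30.2 CPM in treated and 71.4, 56.3 and 53.6 CPM in vehicle mice (log2 fold change -0.97 ± 0.21, edgeR adjusted p 0.0847), and Nr4a2, an early response factor, at 84.9, 103 and 59.3 CPM in treated and 13.0, 44.6 and 33.1 CPM in vehicle mice (1.11 ± 0.29, edgeR adjusted p 0.113). Neither pair of groups overlapped, and neither gene passed. Both belong to the VEGF response list, whose members thus stood on both sides of 0.

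Median Vegfa levels also differed between clusters of a class, with no test, and not all clusters are listed. In fibroblasts the median of Vegfa over mice was 164 CPM in cluster 13, which all 6 mice held (95.9 to 193 CPM). It was 57.4 CPM in cluster 24 (38.4 to 122 CPM, 5 mice), and these ranges overlapped. Fibroblast cluster 10 ran from 10.9 to 299 CPM in 4 mice. In macrophages the medians were 116, 82.9 and 13.3 CPM in clusters 5, 4 and 2. Cluster 5 (98.4 to 127 CPM, 4 mice) lay above cluster 2 (9.60 to 63.5 CPM), and cluster 4 (43.8 to 175 CPM) overlapped both. In neutrophils the medians were 147 and 90.4 CPM in clusters 9 and 7, with overlapping ranges (78.9 to 231 and 45.5 to 156 CPM). Islet endocrine cells, present in numbers in treated 1 and 2 alone, had 155 and 64.2 CPM of Vegfa on 9 and 17 UMIs.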
